A study of Mus musculus with 47 samples.

Results

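The brainstem response to a high-fat diet (HFD) was examined in mice that carry human mutant alpha-synuclein (αSYN). The comparison set 6 brainstem libraries of transgenic (TG) mice fed the HFD against 6 of TG mice fed a standard diet (SD), which are 12 of the 47 libraries of the series. Genes averaging 50 counts or more across the 23 brainstem libraries entered, which left 13340 of 33139 genes. The TG mice had a C57BL/6 background and were homozygous for h[A30P]αSYN, an aggregation-prone familial Parkinson disease mutant, driven by the Thy1 promoter in neurons of the central nervous system and kept as a homozygous colony. The wild-type (WT) mice, used here only beside the TG values, came from the same outcross and were bred as a separate, parallel colony (5 brainstem libraries on SD and 6 on HFD). All mice were male, were assigned to a diet at random within litters from 5 weeks of age, shared cages in small groups, and were killed at 12 months. The brainstem sample was the whole medulla, so every value below is an average over all of its cell types, and fewer cells of a type cannot be told apart from less RNA per cell. Both TG diet groups carried the transgene, so the comparison holds the genotype fixed and varies the diet.

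The adult brain makes nearly all of its own cholesterol, since lipoproteins of the blood do not cross the blood-brain barrier, and oligodendrocytes and astrocytes carry out most of that synthesis. The genes of the pathway are switched together by SREBP2, a membrane-bound transcription factor that is released when sterols are scarce, and those of fatty acid synthesis and desaturation largely by its relative SREBP1. Both factors bind sterol response elements, usually next to CCAAT boxes, which are bound by the factor NF-Y.

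The promoters of 4 lipid genes of low p-value are shown first, because genes of lipid synthesis were among those of lowest p in the comparison. Each run is the 250 bases that end just before the RefSeq start of the gene (assembly GRCm38.p6), written 5′ to 3′ on the strand of the gene. Capitals mark CCAAT boxes in either orientation (CCAAT or ATTGG) and, in Hmgcs1, 1 copy of CACCCCAC, a core form of the sterol response element. The windows are chr13:8885356-8885605 (+) for Idi1, chr13:119690101-119690350 (+) for Hmgcs1, chr8:64733579-64733828 (−) for Msmo1 and chr9:77917115-77917364 (+) for Elovl5.
Idi1: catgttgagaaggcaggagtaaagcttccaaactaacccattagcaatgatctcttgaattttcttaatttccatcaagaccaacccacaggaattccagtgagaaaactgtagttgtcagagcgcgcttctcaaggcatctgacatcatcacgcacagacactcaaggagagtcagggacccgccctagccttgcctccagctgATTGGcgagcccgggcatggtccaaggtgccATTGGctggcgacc
Hmgcs1: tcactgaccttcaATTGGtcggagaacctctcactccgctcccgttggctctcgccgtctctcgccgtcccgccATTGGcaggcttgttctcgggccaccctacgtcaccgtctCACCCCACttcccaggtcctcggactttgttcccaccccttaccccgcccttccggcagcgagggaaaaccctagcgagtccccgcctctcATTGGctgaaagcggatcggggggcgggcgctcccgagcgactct
Msmo1: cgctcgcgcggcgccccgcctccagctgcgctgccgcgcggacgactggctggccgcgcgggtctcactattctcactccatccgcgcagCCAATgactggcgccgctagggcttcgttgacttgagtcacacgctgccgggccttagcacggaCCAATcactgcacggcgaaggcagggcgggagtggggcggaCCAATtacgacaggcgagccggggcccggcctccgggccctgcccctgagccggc
Elovl5: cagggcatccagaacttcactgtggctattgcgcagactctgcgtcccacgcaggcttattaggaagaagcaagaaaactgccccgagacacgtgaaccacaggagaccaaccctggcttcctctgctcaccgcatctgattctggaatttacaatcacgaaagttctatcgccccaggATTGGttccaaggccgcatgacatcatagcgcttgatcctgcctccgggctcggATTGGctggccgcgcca
Idi1 held its CCAAT boxes 14 and 45 bases before the start, Elovl5 17 and 71 bases before it, Msmo1 at 55, 96 and 160 bases and Hmgcs1 at 45, 176 and 237 bases. CACCCCAC began 136 bases before the start of Hmgcs1. Among the 24 tested genes of cholesterol synthesis, 17 were in the RefSeq promoter table, and 16 of them (94.1%, all but Acat2) held a CCAAT box, beside 33.8% of all 32851 promoters of the same length. A listed gene was counted if any of its promoters held the motif, whereas the share over all promoters counts each promoter once. CACCCCAC was found in 2 of the 17, beside 2.58% of all promoters. Of the fatty acid synthesis genes, 16 of 20 were in the table, 8 of them (50%) with a CCAAT box and 1 with CACCCCAC. Both strands were searched, and a match says only that these letters stand in the window.

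Depth and the measured library properties overlapped between the diets. Total counts ranged from 10947603 to 12565584 (median 11330140) on SD and from 10606953 to 15078812 (median 12488881.5) on HFD (two-sided exact permutation test over the 12 libraries, p = 0.154, adjusted p = 0.752 over 5 library measures). The slope of expression on GC content, the share of mitochondrial counts and the choroid plexus gene Ttr gave exact p-values from 0.513 to 0.773. TG SD replicate 1 and TG HFD replicate 3 had much steeper GC slopes than the rest (-0.29 and -0.325 log2 units per 10% GC). The brainstem label held against hippocampus. Slc6a5, the glycine transporter of inhibitory brainstem neurons, had a CPM (read count scaled to library size) of 288 to 474 in TG brainstem. In TG hippocampus it had at most 0.186 CPM. Slc17a7, the vesicular glutamate transporter of forebrain neurons, had 46.3 to 77.4 CPM in TG brainstem against 1090 to 1310 in TG hippocampus. These values do not tell the medulla from other parts of the brainstem.

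Few genes separated the diets in TG brainstem. In the edgeR quasi-likelihood fit with 4 surrogate variables (unmeasured sources of variation estimated from the data), the median log2 fold change was -0.00186 and the median standard error 0.0698. Of the 13340 genes, 1 was a differentially expressed gene (DEG, edgeR adjusted p of at most 0.05 and absolute log2 fold change of at least 0.3), which is 0.0075% of those tested. At the unadjusted threshold (edgeR p up to 0.05), 469 genes (3.52%) were higher and 469 (3.52%) lower on HFD, together 7.03% of the tested genes, against a nominal 5% or 667 genes. The excess depended on the fit. With 1 surrogate variable 346 genes were higher and 331 lower, and with 2 surrogate variables 549 were higher and 606 lower. Apart from the DEG no gene below passed the adjusted threshold for the diet in TG brainstem. A gene is therefore called lower or higher where it passed the unadjusted threshold, and a gene that did not is given by its value alone. Log2 fold changes stand with a standard error (SE) worked back from the edgeR test. It is the absolute log2 fold change divided by the square root of the F statistic. The SE thus restates the test and is no separate measure of the spread between libraries. The counts over the tested genes serve as the background for each gene group. Lists and members were chosen with earlier results of these data known. A share above the background is therefore a description of the list and not a test of it.

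The DEG and the next genes in the order of p among the lower ones were neighbours. 5730419F03Rik, Gm29611 and Utp14b, the 3 lower genes of lowest p, lie within 76482 bases of chromosome 1 on assembly GRCm38, and Gm29611 was named after its values were seen. 5730419F03Rik and Gm29611 are long intergenic non-coding RNA genes on opposite strands with 5958 bases between them. Utp14b, a retrogene copy of the ribosome biogenesis gene Utp14a that is known for its role in the male germ line, lies with all its 13475 bases inside Acsl3, an acyl-CoA synthetase that activates long-chain fatty acids, and on the same strand. Reads of their overlapping exons cannot be told apart.

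The 2 non-coding genes were near 0 in most libraries and high in a few. 5730419F03Rik had counts of 2146, 0, 0, 0, 0 and 0 in the SD libraries and 1, 0, 0, 0, 1 and 0 in the HFD libraries, and WT SD libraries held 91 and 1104 in replicates 1 and 7. A single SD library therefore carried the only DEG of the comparison (fitted log2 fold change -19.68, SE 0.996, edgeR adjusted p = 2.16e-10), and that library was 1 of the 2 of steep GC slope. Without surrogate variables the fitted value was -9.65, and without TG SD replicate 1 or without TG HFD replicate 3 there were 0 DEGs. The SE does not show this dependence: with 1 library left out the fitted value ran from -21.85 to 8.42. Gm29611 had counts of 0, 0, 601, 15, 0 and 247 on SD and 0, 0, 0, 152, 0 and 283 on HFD (edgeR log2 fold change -6.5, SE 1.29, adjusted p = 0.11). High counts thus occurred on both diets, and the fit without surrogate variables gave -1.33 (SE 1.14), short of the unadjusted threshold. Taking 50 counts as present, 5730419F03Rik was present in 3 of 11 SD and 0 of 12 HFD brainstem libraries, Gm29611 in 2 SD and 3 HFD libraries, and no brainstem library held both. The 3 SD libraries with 5730419F03Rik were also what carried that gene past the filter of 50 counts on average. Its split by diet is therefore no separate support for a diet difference. In hippocampus 5730419F03Rik was present in 4 of 12 SD and 2 of 12 HFD libraries and Gm29611 in 2 and 1, with 1 library holding both.

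Utp14b was expressed in every library, and was lower on HFD. Its SD levels were 54.7, 17, 36.1, 68, 44.3 and 42 CPM and its HFD levels 21, 18.3, 17.2, 20.7, 17.8 and 14.2 CPM. All 6 HFD libraries lay at or below 21 CPM, and of the SD libraries only replicate 2, at 17 CPM, was in that range. The log2 fold change was -1.33 (SE 0.269, edgeR adjusted p = 0.11), and it was -1.27 (SE 0.256) without surrogate variables. The SD libraries were also the more variable ones, with a standard deviation of 17.2 CPM around the mean of 43.7 against 2.48 around 18.2 on HFD. In WT brainstem the log2 fold change was -0.68 (SE 0.297) and in TG hippocampus -0.96 (SE 0.194), both past the unadjusted threshold, and the interaction of genotype and diet in brainstem was -0.65 (SE 0.424), short of it. Over the alternative settings the TG brainstem value stayed between -1.54 and -1.04. Acsl3, the host gene, had 260 to 304 CPM (median 291) on SD and 240 to 281 (median 259) on HFD, a log2 fold change of -0.13 (SE 0.0403), also lower. The groups overlapped, and of the protein-coding genes on the far side of 5730419F03Rik, BC035947 (log2 fold change -0.0142, SE 0.102) and Farsb (0.0126, SE 0.0432) did not pass. Mogat1, the nearest of them, had 6 to 26 counts on SD and 10 to 16 on HFD, too few to be tested. The share of the Acsl3 difference that comes from reads of Utp14b was not tested.

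**Figure D1:**
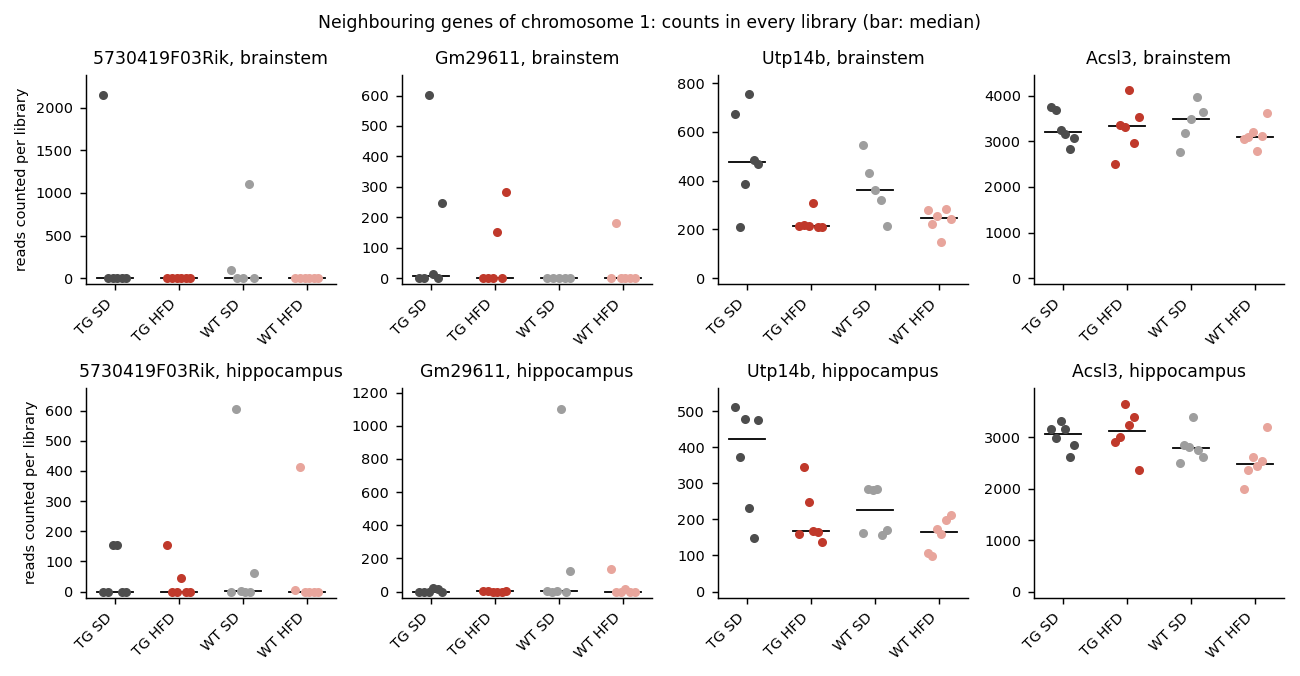
Reads counted per library (vertical axes, linear, from 0) for 4 neighbouring genes of chromosome 1 in brainstem (top) and hippocampus (bottom), by genotype and diet, with 1 point per library and a bar at the median. 5730419F03Rik reaches 2146 counts in a single TG SD brainstem library and 1 at most on TG HFD, whereas Utp14b is spread from 210 to 757 counts on TG SD and from 208 to 307 on TG HFD.

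Of 24 tested genes of cholesterol synthesis, 6 were lower on HFD, which is 25.0% beside 3.52% of all tested genes, 1 was higher, and the others did not pass the unadjusted threshold. In sign, 22 of the 24 log2 fold changes were negative. The median of the list was -0.0686, beside -0.00186 over all tested genes. Summed over the list, expression was 1870 to 2020 CPM (median 1980) on SD and 1700 to 1920 CPM (median 1870) on HFD, so that the groups overlapped. Markers of the cell types named above also had negative list medians. That of astrocyte markers was -0.0631, with 5 of 23 lower, and that of oligodendrocyte and myelin genes -0.0262, with 3 of 30 lower. Without surrogate variables 0 of the 30 were lower, and over 27 alternatives the median of these 30 ran from -0.0475 to 0.00619. The part of these cell types in the result was not tested.

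Idi1, which isomerises isopentenyl diphosphate into the other building block of all isoprenoids, had the lowest p. Its SD levels were 145, 138, 137, 126, 120 and 121 CPM and its HFD levels 113, 130, 107, 111, 96.6 and 89.3 CPM. Of the HFD libraries 5 lay below every SD library, and only TG HFD replicate 3 was inside the SD range. WT brainstem had 106 to 153 CPM (median 110) on SD and 100 to 114 CPM (median 108) on HFD. The TG HFD median of 109 CPM was near both WT medians, and the TG SD median of 132 CPM was above them. In TG brainstem the log2 fold change was -0.19 (SE 0.0427, edgeR adjusted p = 0.247). Hmgcs1, the synthase that makes HMG-CoA at the head of the pathway, had 279 to 315 CPM (median 306) on SD and 249 to 313 CPM (median 280) on HFD, with 3 HFD libraries below the SD range and a log2 fold change of -0.11 (SE 0.041). Cyp51, Msmo1, Tm7sf2 and Sc5d, which remodel the sterol after lanosterol, had log2 fold changes of -0.11, -0.085, -0.19 and -0.0786 and were lower as well. Without surrogate variables Hmgcs1 (-0.1, SE 0.0557) and Sc5d (-0.11, SE 0.0627) did not pass. Insig1, which retains SREBP in the endoplasmic reticulum and is itself an SREBP target, was at -0.0719 (SE 0.0404). Srebf2, the gene of SREBP2, was at -0.032 (SE 0.0352), turning to 0.0701 without surrogate variables. The only higher member was Fdps, farnesyl diphosphate synthase, at 5.84 to 7.3 CPM on SD and 6.05 to 9.11 CPM on HFD (log2 fold change 0.28, SE 0.109), with 4 HFD libraries inside the SD range, and without surrogate variables it was at 0.17 (SE 0.105) and did not pass. Fdps has pseudogene copies, and how reads shared with them were counted is not given in the sources used here.

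Of 20 tested genes of fatty acid synthesis and desaturation, 4 were lower (20%) and 0 higher (edgeR), and 17 log2 fold changes were negative. The list median was -0.0745, and -0.0305 with 3 lower without surrogate variables. Scd2, the main stearoyl-CoA desaturase of the brain, had 2900, 2700, 3210, 3130, 2970 and 3070 CPM on SD and 2760, 2680, 2800, 2870, 3030 and 3030 CPM on HFD. These ranges overlapped widely, and the fitted change of -0.13 log2 units (SE 0.0305, edgeR adjusted p = 0.247) became -0.0678 (SE 0.049), short of the unadjusted threshold, without surrogate variables. Elovl5, an elongase of polyunsaturated fatty acids, separated better: it had 188 to 205 CPM (median 197) on SD and 169 to 188 CPM (median 181) on HFD, with 5 HFD libraries below every SD library (log2 fold change -0.14, SE 0.0397; -0.13, SE 0.0449, without surrogate variables). The WT brainstem medians of Elovl5 were 181 CPM on SD and 186 CPM on HFD, nearer the TG HFD than the TG SD median. Scd1, another stearoyl-CoA desaturase, had 545 to 653 CPM (median 633) on TG SD and 539 to 599 (median 566) on TG HFD (log2 fold change -0.13, SE 0.0484), and the SD group overlapped with HFD only through replicate 7. Acly and Fasn, which make acetyl-CoA and palmitate in the cytosol, were at -0.0724 (SE 0.0317, lower) and -0.064 (SE 0.0414), but both turned positive without surrogate variables (0.052 and 0.15).

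The same genes were set beside the other diet contrasts. In TG hippocampus 8 of 24 cholesterol genes were lower and 0 higher (edgeR, background 3.91% lower and 3.36% higher), with a median of -0.078, and 6 of 20 fatty acid genes were lower and 0 higher, with a median of -0.054. Lower in both TG regions were Hmgcs1, Idi1 and Msmo1 of the first list and Elovl5, Scd1 and Scd2 of the second, and 21 of 24 and 13 of 20 members were negative in both. The labels do not say which hippocampus and brainstem libraries share a mouse, so the regions may not be independent. In WT brainstem (background 3.28% lower and 2.11% higher) 1 cholesterol gene was lower and the median was -0.0238. For fatty acid synthesis 1 was lower, with a median of -0.0231. By level, the WT brainstem medians of Hmgcs1 were 287 CPM on SD and 268 CPM on HFD. Those of Scd2 were 2990 and 2820 CPM, near the TG medians of 3020 and 2840 CPM on the same diets. The interaction of genotype and diet, which tests whether the TG and WT effects differ, passed the unadjusted threshold in 1 cholesterol gene and 2 fatty acid genes, beside 4.79% of all tested genes, so a difference between the genotypes was not shown for these pathways. Over 27 alternative settings in TG brainstem, 3 to 7 cholesterol and 3 to 8 fatty acid genes were lower, and the list medians stayed between -0.0855 and -0.0545 and between -0.086 and -0.0305. The cholesterol count was 3 without any 1 of TG SD replicates 6 and 8 and TG HFD replicates 7 and 8, and the fatty acid count was 7 without TG SD replicate 1 and 8 without TG SD replicate 7.

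**Figure D2:**
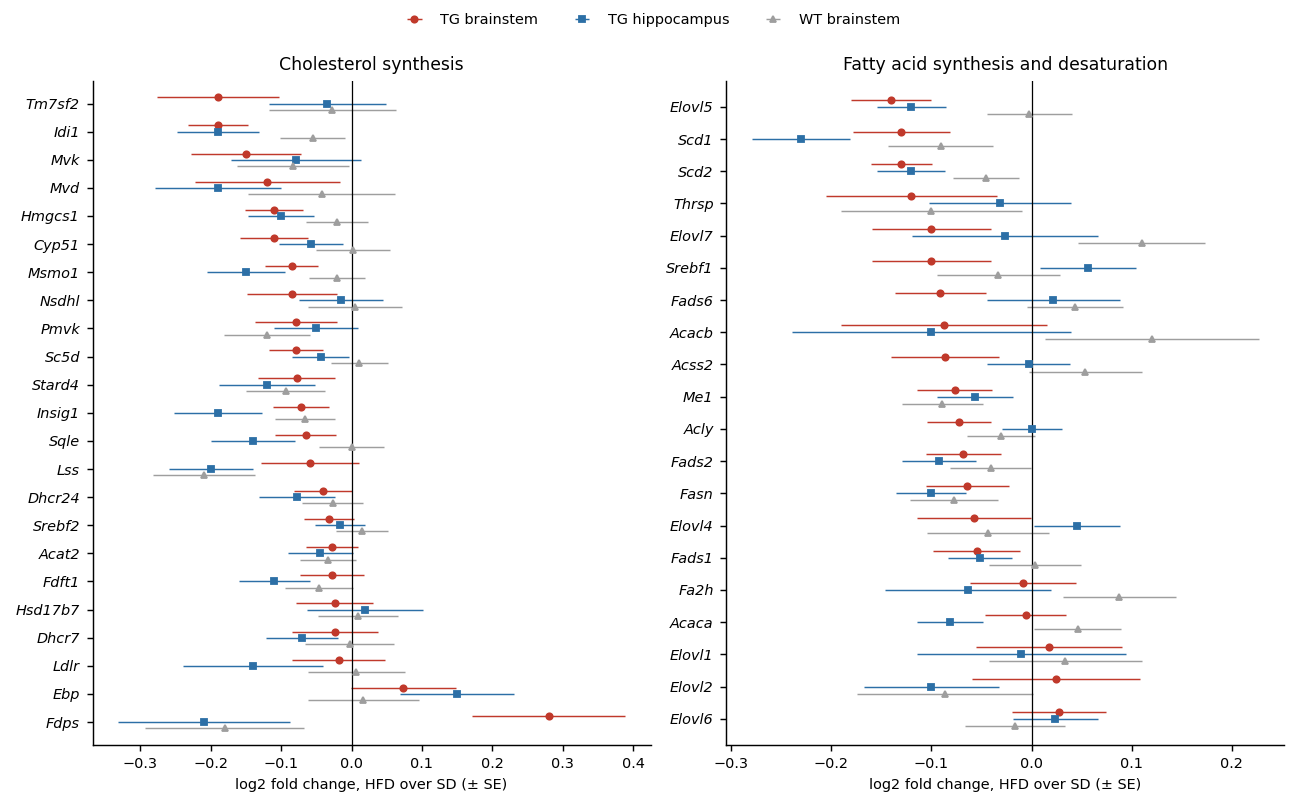
Log2 fold change of HFD over SD (horizontal axes, points, with bars of ± 1 SE worked back from the edgeR test) for 23 tested genes of cholesterol synthesis (left) and 20 of fatty acid synthesis and desaturation (right) in TG brainstem, TG hippocampus and WT brainstem. In TG brainstem 21 of these 23 and 17 of these 20 genes lie left of 0, with Idi1 at -0.19 and Elovl5 at -0.14, and Fdps at 0.28 lies farthest to the right.

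Other lipid and energy genes showed less. Of 16 tested genes of cholesterol export and lipoprotein handling 1 was higher, Lrp1, a lipoprotein receptor (log2 fold change 0.13, SE 0.0622), and 0 were lower (edgeR). Lrp1 was lower in TG hippocampus (-0.15, SE 0.0575), and without surrogate variables its brainstem value of 0.25 (SE 0.129) did not pass. Of 32 genes of fatty acid oxidation and PPAR targets 1 was higher, Ucp2, a mitochondrial carrier (0.15, SE 0.0704), whose HFD libraries all lay inside the SD range and which did not pass without surrogate variables (0.0561, SE 0.0918). Of 28 genes of glycolysis, lactate and pyruvate metabolism 0 passed the unadjusted threshold in either direction. Of 22 insulin, insulin-like growth factor (IGF) and leptin signalling genes 3 were higher and 0 lower. Igf1r, the IGF-1 receptor, had 43.9, 42.8, 43.8, 47.1, 45.5 and 46.2 CPM on SD and 48.9, 57.9, 48.8, 48.5, 48.4 and 53.3 CPM on HFD. Every HFD library stood above every SD library, although the log2 fold change was small (0.11, SE 0.0514). Igfbp4, a binding protein that holds IGFs, was higher at 0.22 (SE 0.0859), with 4 HFD libraries inside the SD range and a value of 0.044 (SE 0.133) without surrogate variables. Adipor2, an adiponectin receptor, was higher at 0.1 (SE 0.0483) and was at -0.0135 without surrogate variables.

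In 23 genes (0.172% of those tested) the 6 HFD and 6 SD libraries did not overlap in CPM, 11 of them (0.0825%) with higher and 12 (0.09%) with lower levels on HFD. Such a separation of 6 from 6 libraries has a two-sided exact permutation p of 0.00216 for 1 gene, before any adjustment over the 13340, so the separation by itself did not single these genes out. Hopx, Trmu and Asf1a were among those with lower levels. Hopx, a homeodomain-only protein found in astrocytes and neural stem cells, had 54.9, 47.6, 50.2, 43.9, 47.6 and 42.1 CPM on SD and 41.6, 38, 29.9, 38, 35.1 and 35.4 CPM on HFD, and its log2 fold change was -0.25 (SE 0.0654, edgeR adjusted p = 0.405). Hopx was also lower in TG hippocampus (-0.16, SE 0.0717) and was at 0.00244 in WT brainstem, and its interaction of genotype and diet passed the unadjusted threshold.

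Trmu, which thiolates mitochondrial transfer RNAs, had 12.4 to 16.7 CPM (median 13.6) on SD and 9.8 to 12.3 CPM (median 10.7) on HFD (log2 fold change -0.32, SE 0.0975). Asf1a, a histone chaperone, had 10.3 to 12.3 CPM (median 11.1) on SD and 8.45 to 9.62 (median 8.74) on HFD (-0.28, SE 0.082). Its WT libraries lay between 7.92 and 10.3 CPM on either diet, mostly the range of the TG HFD libraries, and the highest of them reached the lowest TG SD value. Hadh, a mitochondrial enzyme of fatty acid oxidation, had 35.6 to 38.5 CPM on SD and 28.3 to 35.4 CPM on HFD, but its fitted log2 fold change of -0.1 (SE 0.0575) did not pass. Tdgf1, a growth factor co-receptor, and Dynlt1f, a dynein light chain, did not overlap either, and their fitted values of -0.15 (SE 0.138) and -0.1 (SE 0.0879) did not pass. The separation in CPM and the fitted test are thus different criteria.

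Among the higher genes, Tox, a chromatin factor of the HMG-box family, had 5.92 to 7.2 CPM (median 6.63) on SD and 7.48 to 9 CPM (median 8.3) on HFD (log2 fold change 0.26, SE 0.121), and it was also higher in TG hippocampus (0.25, SE 0.0861). D7Ertd443e (9.65 to 11.6 against 12 to 14.1 CPM; 0.21, SE 0.0857) and Ick, a kinase of primary cilia (17.9 to 21 against 21.3 to 23.9 CPM; 0.19, SE 0.0778), separated by a narrow gap. Zc3h13, a subunit of the RNA methylation machinery, and Spats2l had fitted values of 0.11 (SE 0.0624) and 0.12 (SE 0.0752), short of the unadjusted threshold. Stk4, a Hippo pathway kinase, rested on a gap of 26.8 to 26.9 CPM (0.13, SE 0.0657), and Brap (0.0766, SE 0.0439) and Mgme1, a nuclease of mitochondrial DNA (0.19, SE 0.0999), also missed the unadjusted threshold.

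**Figure D3:**
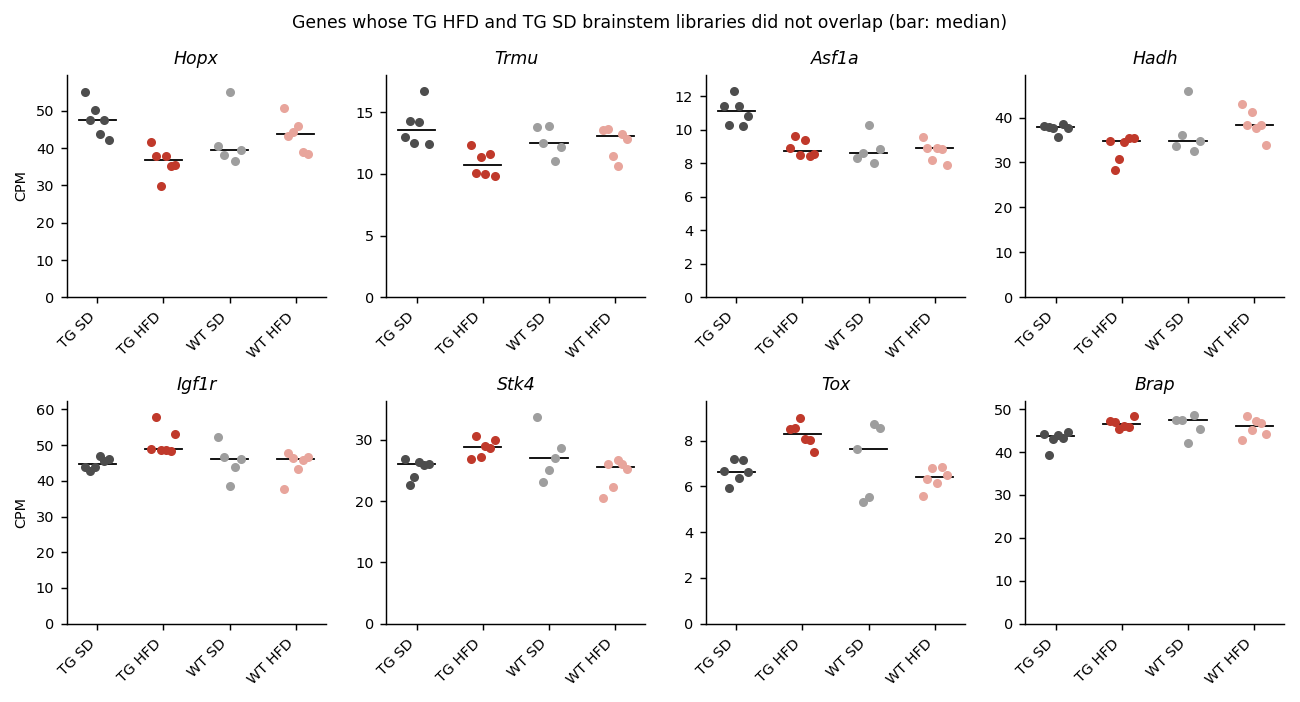
CPM per brainstem library (vertical axes, linear, from 0) for 4 genes with lower and 4 with higher levels on HFD whose TG groups did not overlap, with 1 point per library, a bar at the median and the WT groups beside them. Hopx lies between 42.1 and 54.9 CPM on TG SD and between 29.9 and 41.6 CPM on TG HFD, and Igf1r between 42.8 and 47.1 and between 48.4 and 57.9 CPM.

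Of the 12 genes of lowest p in each direction, many were copies of other genes. Pseudogenes made up 7 of the 12 higher and 6 of the 12 lower, beside 1311 of all 13340 tested genes, and 5 in each direction carried Gm or Rik names. Rpl17-ps5 and Rpl17-ps3, pseudogenes of the ribosomal protein gene Rpl17, were higher (log2 fold changes of 0.18 and 0.16), as was Rpl17 at 0.0928 (SE 0.0296), whose sign turned without surrogate variables (-0.0664). Of the tested genes, 26 had counts identical to another gene in every library, so reads of near-identical copies cannot be assigned with certainty, and these values are uncertain.

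The protein-coding genes of lowest p on the higher side were Ryr2, Smg1, Pkd1, Nktr and Marf1. Ryr2, the calcium release channel of the endoplasmic reticulum, had 73.3 to 96.7 CPM (median 85.6) on SD and 92.4 to 118 CPM (median 101) on HFD, with 5 HFD libraries above every SD library. Its log2 fold change was 0.2 (SE 0.0472, edgeR adjusted p = 0.252), against -0.0118 in WT brainstem and -0.11 in TG hippocampus, and the interaction in brainstem passed the unadjusted threshold. Marf1, a ribonuclease, had 147 to 165 CPM on SD and 164 to 192 CPM on HFD, with 5 HFD libraries above the SD range (0.13, SE 0.0364). Smg1, a kinase of nonsense-mediated decay (0.19, SE 0.0476), Pkd1, polycystin-1 (0.23, SE 0.0568), and Nktr, a cyclophilin with an RS domain (0.25, SE 0.0679), overlapped more, and without surrogate variables none of the 3 passed in edgeR. On the lower side Gpcpd1, which hydrolyses glycerophosphocholine, had 121 to 156 CPM (median 135) on SD and 108 to 129 CPM (median 119) on HFD (-0.15, SE 0.0365) and was also lower in WT brainstem (-0.0867, SE 0.0386).

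Of 23 tested astrocyte markers 5 were lower and 1 higher, with a median of -0.0631 (2 and 2 without surrogate variables). Without any 1 of TG SD replicate 5 and TG HFD replicates 1 and 7, 3 were lower. Gja1, the gap junction protein connexin 43, was lower in brainstem (log2 fold change -0.12, SE 0.0461) and in TG hippocampus (-0.13, SE 0.0354), where 6 of 22 astrocyte markers were lower. The GABA transporter Slc6a11 (-0.1, SE 0.0414; -0.072, SE 0.0568, without surrogate variables, which did not pass) was also among the 5, and the higher marker was Serpina3n, a protease inhibitor induced in reactive astrocytes (0.21, SE 0.0945). The summed level of the 24 markers in the table was 8290 to 9170 CPM on SD and 7950 to 9070 CPM on HFD.

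Of 25 endothelial markers 4 were lower and 1 higher, with a median of -0.049. Cldn5, the main claudin of the blood-brain barrier, had 17.8, 27.7, 24.5, 33.2, 28.5 and 21.8 CPM on SD and 21.9, 13.1, 17.8, 19.1, 27.3 and 24.8 CPM on HFD. The groups overlapped strongly although the fitted log2 fold change was -0.33 (SE 0.0857); without surrogate variables it was -0.3 (SE 0.151) and did not pass. Ocln, occludin of the same junctions, had 15.5 to 20.9 CPM on SD and 12.7 to 17.3 on HFD (-0.2, SE 0.0845), and it and Pltp, a phospholipid transfer protein, were lower in TG hippocampus as well. Without TG HFD replicate 8, 2 of the endothelial markers were lower, and over 27 alternatives the count was 1 to 7. Of 12 pericyte and smooth muscle markers 1 was higher and 1 lower, with a median of -0.00944. Of 30 oligodendrocyte and myelin genes 3 were lower and 0 higher (median -0.0262; 0 and 0 without surrogate variables). Mbp, myelin basic protein, was at -0.0675 (SE 0.0395), with TG HFD replicate 3 alone far below the rest at 4220 CPM.

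Of 25 microglia and macrophage markers 2 were higher and 0 lower, with 20 positive and a median of 0.0813, while in TG hippocampus 0 of 23 passed in either direction in edgeR. Ly86, a partner of a Toll-like receptor homologue, had 11.8 to 15 CPM (median 12.6) on SD and 11.8 to 19.9 CPM (median 15.5) on HFD (0.28, SE 0.0948). Lpl, lipoprotein lipase, had 8.92 to 12.3 CPM on SD and 11.5 to 23 on HFD, with 5 HFD libraries above the SD range (0.29, SE 0.129). Of 24 tested interferon response and MHC class I genes 20 were positive and the median was 0.12, but 0 passed the unadjusted threshold in either direction in edgeR, and 3 were higher without surrogate variables (background 3.11% higher and 3.15% lower in that fit). WT brainstem had similar list medians (background 2.11% higher and 3.28% lower). There 2 microglia markers were higher and 0 lower (median 0.0744), and 1 interferon gene was higher and 0 lower (median 0.0861). TG HFD replicate 8 stood apart: C4b, complement component 4 of reactive glia, had 152 CPM there, against 45.3 to 64 in the other HFD libraries and 48.2 to 55.5 on SD. Counting replicate 8, 5 of the 6 HFD libraries were above every SD library for C4b, although its log2 fold change of 0.35 (SE 0.178) did not pass, and it was 0.53 (SE 0.185) and passed without surrogate variables. Gfap had 678 CPM in that library against 278 to 468 in the other HFD libraries, Serpina3n 65.8 CPM and Ifit3 56.9 CPM. Without it the interferon median was 0.0648 and the microglia median 0.0229, C4b went from 0.35 to 0.21, Gfap from 0.15 to 0.0587 and Ifit3 from 0.38 to 0.27.

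**Figure D4:**
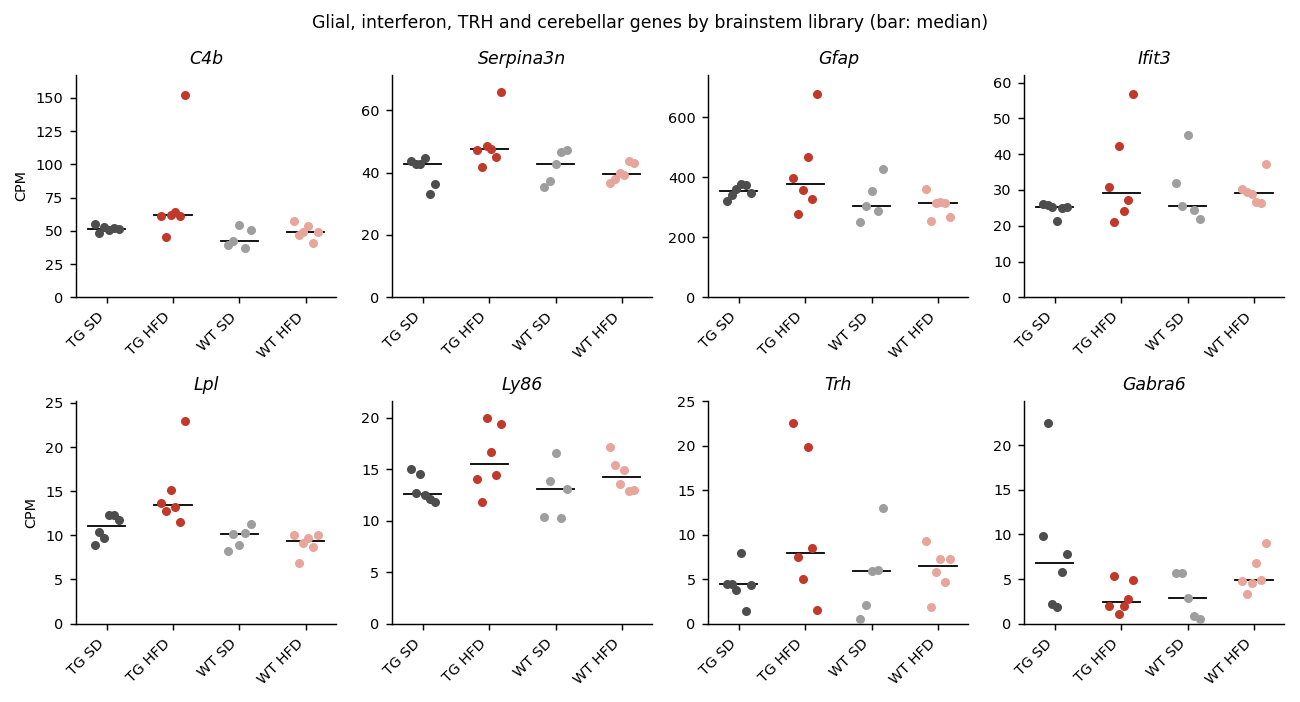
CPM per brainstem library (vertical axes, linear, from 0) for glial, interferon, neuropeptide and cerebellar genes, by genotype and diet, with 1 point per library and a bar at the median. TG HFD replicate 8 is the top point for C4b at 152 CPM, Gfap at 678, Ifit3 at 56.9 and Lpl at 23, and for C4b and Lpl 5 of the 6 TG HFD libraries lie above every TG SD library.

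Calls in the neuronal marker lists depended on the model. Of 12 cholinergic and motor neuron markers 3 were lower, among them Slc18a3, the vesicular acetylcholine transporter (log2 fold change -0.27, SE 0.0949), and Slc5a7, the choline transporter (-0.16, SE 0.0652). Slc18a3 had 8.76 to 18.2 CPM on SD and 9.87 to 15.5 on HFD, and 0 of the 12 passed without surrogate variables. Of 21 glycine and GABA neuron genes 3 were lower and 0 higher, among them the glycine transporter Slc6a9 (-0.13, SE 0.0447), again 0 without surrogate variables. All 11 tested monoamine neuron genes were positive with a median of 0.14, of which 1, Maob, the monoamine oxidase also made by astrocytes, passed (0.15, SE 0.0511), and 0 passed without surrogate variables.

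Cerebellar genes, whose presence in a medulla sample depends on the dissection, had the lowest median among lists with 10 or more tested members in the fit with 4 surrogate variables (without them choroid plexus genes had -0.28 and cerebellar genes -0.19). It was -0.15 over 12 tested granule and Purkinje cell markers, of which 2 were lower. Gabra6, a GABA receptor subunit of cerebellar granule cells, had 9.81, 22.5, 2.24, 1.89, 5.77 and 7.86 CPM on SD and 1.96, 5.35, 1.04, 2.02, 2.82 and 4.9 on HFD (-0.88, SE 0.492; -1.47, SE 0.507, without surrogate variables). The summed level of the list was 386 to 663 CPM on SD and 352 to 504 CPM on HFD, and no member was at 0 in all TG libraries. Cbln1, a synaptic organiser of granule cells also found in brainstem neurons, had 46 to 61.7 CPM on SD and 27.2 to 58.1 on HFD (-0.34, SE 0.0955). The part of the dissection in these differences was not tested.

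Of 33 synaptic vesicle and release genes 4 were higher (12.1%) and 1 lower, the higher ones being Syn1, synapsin (log2 fold change 0.13, SE 0.0457), Bsn and Pclo, large scaffolds of the active zone (0.13, SE 0.0479, and 0.15, SE 0.0604), and Syt1, the calcium sensor of release (0.14, SE 0.063). In TG hippocampus Bsn (-0.17, SE 0.05) and Pclo (-0.13, SE 0.0556) were lower, and of 32 members tested there 3 were lower and 1 higher. Syn1 had 180 to 232 CPM on SD and 206 to 263 CPM on HFD, with 5 HFD libraries above every SD library. Of 24 neurofilament and microtubule genes 3 were higher, Dync1h1, the dynein motor (0.13, SE 0.0551), Map1b (0.0804, SE 0.0336) and Mapt, the gene of tau (0.0761, SE 0.0341), and Nefm, a neurofilament subunit, was lower (-0.0805, SE 0.0387) but was at 0.11 (SE 0.118) without surrogate variables. Over 27 alternatives 1 to 7 synaptic genes were higher and 0 or 1 lower, and 0 to 4 neurofilament and microtubule genes were higher and 0 to 4 lower. The calls of the latter list thus depend on the fit. Its median was 0.0212, ranged from -0.00709 to 0.0823 over the alternatives and kept its sign in 26 of 27.

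Of 85 tested cytosolic ribosomal protein genes 9 were higher (10.6%) and 0 lower, with a median of 0.0285. Without surrogate variables 0 passed in either direction and the median was -0.0572, and over 27 alternatives 0 to 14 were higher and 0 to 6 lower, so the direction of this list depends on the fit. Nuclear subunits of the respiratory chain had 2 lower of 37 in complex I and 2 lower of 41 in complexes II to V, with none higher in edgeR. Their medians were -0.0192 and -0.0104. Without surrogate variables the medians were -0.0608 and -0.1, with 1 and 4 lower. Both medians were negative in all 27 alternatives, and their size depended on the fit. Cox6c, a subunit of cytochrome c oxidase, had 243 to 282 CPM on SD and 206 to 263 CPM on HFD (-0.13, SE 0.0356). Of the 13 mitochondrial genome transcripts mt-Atp8 was lower (-0.23, SE 0.0722) and mt-Co1 higher (0.0824, SE 0.0343), and mt-Atp8 was also lower in TG hippocampus (-0.31, SE 0.11). Neither passed in brainstem without surrogate variables (-0.25, SE 0.123, and 0.0161, SE 0.0698).

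Single genes of hormone and clock lists stood out by size. Trh, the precursor of thyrotropin-releasing hormone, had 4.46, 4.46, 3.74, 8, 1.37 and 4.38 CPM on SD and 22.5, 7.44, 4.98, 19.9, 8.54 and 1.5 CPM on HFD. The log2 fold change was 1.5 (SE 0.495, edgeR adjusted p = 0.529), but only 3 HFD libraries lay above the SD range and WT SD libraries ranged from 0.497 to 13 CPM. Per1, a clock gene and glucocorticoid target, had 14.1 to 24.2 CPM (median 17.7) on SD and 20.1 to 23.4 (median 22.2) on HFD, with all HFD libraries inside the SD range (0.31, SE 0.111; 0.25, SE 0.135, without surrogate variables, which did not pass). Of the 21 tested clock genes only Per1 passed.

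Few genes of the Parkinson disease and protein clearance lists passed the unadjusted threshold. Of 19 homologues of familial Parkinson disease genes 2 were higher, Vps13c, a bridge for lipid transfer between organelles (0.12, SE 0.0456), and Dnajc13, an endosomal co-chaperone (0.11, SE 0.0443), and 0 were lower (edgeR). Vps13c was lower in TG hippocampus (-0.12, SE 0.0522), and Dnajc13 did not pass without surrogate variables (0.15, SE 0.0791). Thy1, whose promoter drives the transgene, had 7210 to 8860 CPM on SD and 6530 to 9310 CPM on HFD, overlapping widely. The WT brainstem libraries had only 484 to 586 CPM, so the TG values cannot be read as the level of the mouse gene alone. The share of TG reads that comes from the transgene was not tested. Thy1 was lower at a log2 fold change of -0.1 (SE 0.0454), and without surrogate variables it was at -0.0588 (SE 0.0671) and did not pass. Autophagy genes (1 higher and 2 lower of 32), lysosomal genes (0 and 1 of 43) and chaperones (0 and 2 of 37) had shares near the background.

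**Figure D5:**
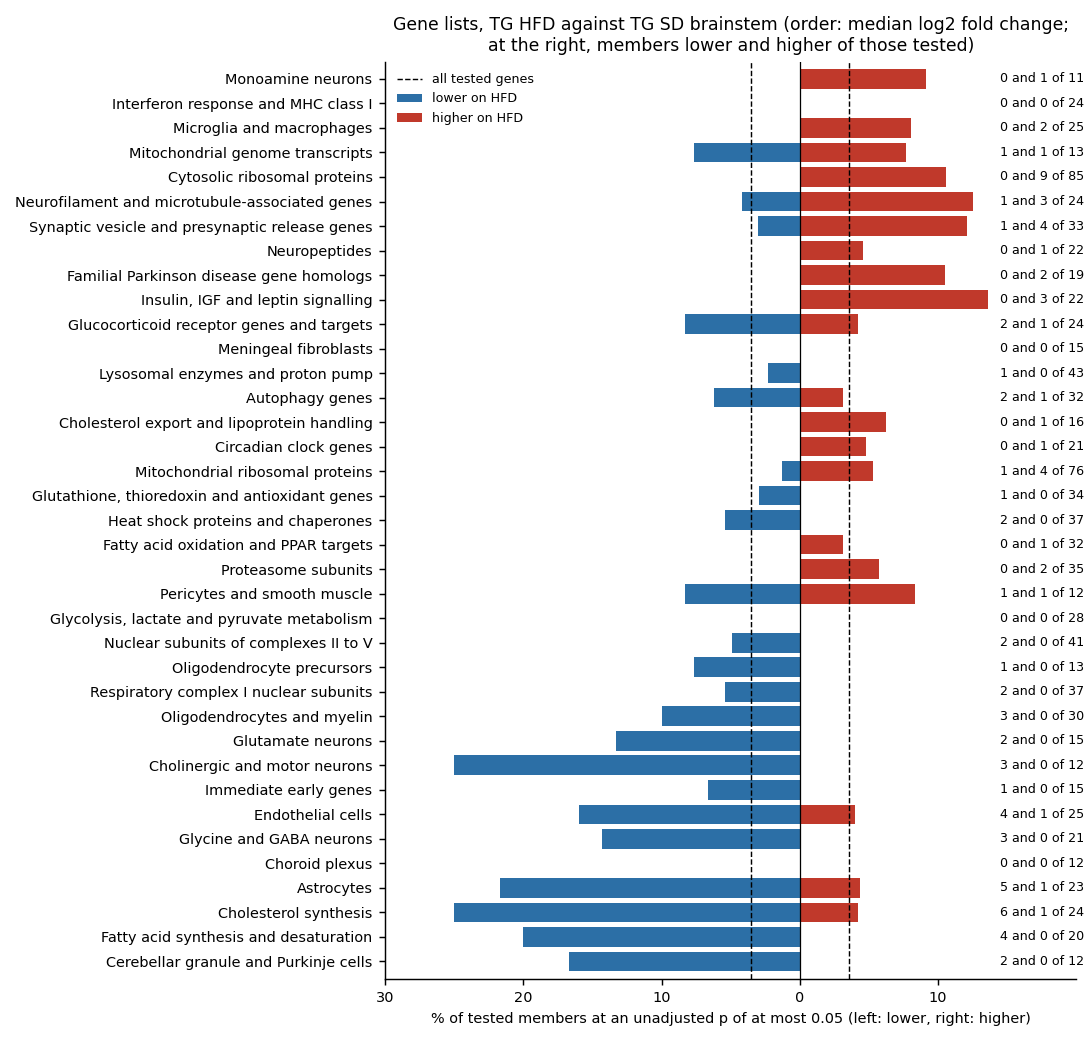
Share of the tested members of each gene list, for lists with 10 or more tested members, that were lower (bars to the left) or higher (bars to the right) on HFD in TG brainstem at the unadjusted edgeR threshold, in percent of the members tested, with counts at the right and dashed lines at the 3.52% of all tested genes. Cholesterol synthesis reaches 25.0% lower, fatty acid synthesis 20% and astrocytes 21.7%, and cytosolic ribosomal proteins reach 10.6% higher. The lists were chosen with earlier results of these data known, so the shares are no test.

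For the difference between the genotypes, 1 gene passed. Zfp382, a zinc finger repressor, had 8.51, 5.35, 4.58, 6.2, 5.41 and 6.43 CPM on TG SD and 5.58, 6.78, 3.7, 3.57, 3.33 and 3.47 CPM on TG HFD (log2 fold change -0.57, SE 0.149). The WT libraries had 3.28, 2.99, 2.44, 2.88 and 2.82 CPM on SD and 2.75, 3.72, 3.54, 3.36, 5.26 and 6.56 CPM on HFD (0.81, SE 0.168). WT HFD replicates 7 and 8 were the highest of these, and the WT libraries held only 33 to 96 counts. The fitted diet effects had opposite signs, and the interaction was -1.38 (SE 0.236, edgeR adjusted p = 0.039). Of the TG HFD libraries 4 lay below the SD range. Without surrogate variables 0 genes passed for the interaction with edgeR or DESeq2, and with them DESeq2 called Zfp382 as well.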

How the data were processed

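The authors assessed reads with FastQC (0.11.9), aligned them with STAR (2.7.9a) to Ensembl v104 with the transgene's sequence added, and deposited raw read counts per gene, with no normalization, in 1 table per region. Poly(A) libraries came from 500 ng of RNA, with single-end reads of 75 bases. The counting tool, its strand setting and its handling of shared reads are not given in the sources used here. Per the study, RNA of both regions was taken from 6 animals in each group, and the labels do not say which libraries share a mouse.

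Genes averaging 50 counts or more across the 23 brainstem libraries were tested with edgeR 4.0.16 (R 4.3.3, TMM normalization, quasi-likelihood test) in 1 model of the 4 genotype and diet groups, with 4 surrogate variables (sva 3.50.0, 20 permutations) and Benjamini-Hochberg adjustment. DEGs needed an adjusted p up to 0.05 and a log2 fold change of 0.3 or more in size. Hippocampus (13272 genes) was fitted alone. CPM are the usual read counts scaled to library size, with TMM factors. DESeq2 1.42.0, other normalizations, filters and numbers of surrogate variables, a GC offset, a replicate block and leaving out libraries were the alternatives. The scripts were tested on simulated data.

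Named genes were the DEG, the 12 of lowest p in each direction (Gm and Rik names by count), the 6 of largest ratio in each direction without overlap, the 2 of lowest p in each list, Thy1, and interaction calls. Some genes that these rules name, and 1 of the 5 library measures, are not reported here. Gm29611, Acsl3, BC035947, Farsb, Mogat1, Hadh, Stk4, Brap, Mgme1, C4b, Gfap and other list members beyond these were named after their values were seen. Members and lists were chosen with earlier results of these data known. Symbols came from the annotation, and 20 tested genes had none. Promoters were matched by symbol to RefSeq.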

Additional observations from a re-analysis of the deposited data

Results flagged for a closer look

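A value far from the rest of its group of 6 was found in 13 of 158 groups examined. Chance flags about 1 in 20 groups that were not chosen by their values. Many of these genes were chosen from the same data, so the 13 cannot be compared with that rate. The gap to the nearest library, as a share of the group's range, was 1.0 for 5730419F03Rik in TG SD (replicate 1, 174 CPM, median 0). TG HFD replicate 8 was highest for C4b (gap 0.825, 152 CPM against a median of 61.6), Serpina3n (0.718) and Lpl (0.681). TG HFD replicate 3, of steep GC slope, was lowest for Mbp (gap 0.828, 4220 CPM against a median of 7250) and Ppp1r14a, a myelinating oligodendrocyte gene (0.662, 7.19 CPM against 13.5), and highest for the choroid plexus gene Ttr (0.674, 2340 CPM against 138). TG HFD replicate 6 was lowest for Syn1 (0.723). On SD, replicate 6 was lowest for Hadh (0.69) and Ifit3 (0.718), replicate 7 for Scd1 (0.746) and Sc5d (0.679) and replicate 2 for Brap (0.671).

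For Zfp382 the diet effect differed between TG and WT brainstem, with an interaction of -1.38 on the log2 scale.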

How the results depend on the processing

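The 1 DEG became 0 with DESeq2 with or without surrogate variables, with 0 or 1 surrogate variable, with filterByExpr, with a GC offset and 0 surrogate variables, in a fit of the TG libraries alone and, chosen after seeing the data, without both libraries of steep GC slope. In the fits with 0 DEGs, 346 to 607 genes were higher and 319 to 588 lower at the unadjusted threshold. It became 6 with 2 surrogate variables, with a total count of at least 50 and with no filter. Leaving out 1 library gave 0 to 4, with 0 without TG SD replicate 1 or TG HFD replicate 3, 2 without TG SD replicate 6 or 7 or TG HFD replicate 8, and 4 without TG HFD replicate 1. Genes higher on HFD at the unadjusted threshold numbered 1043 with no filter (373 to 490 with 1 library left out), and lower genes 730 with a total count of at least 50 and 1414 with no filter (417 to 579), where more genes were tested. Genes without overlap numbered 40 with a total count of at least 50, 33 to 102 with 1 library left out (102 without TG HFD replicate 1) and 125 without both steep libraries, since fewer libraries overlap less easily. The interaction call became 0 with DESeq2 without surrogate variables, 0, 1, 2 or 3 surrogate variables, filterByExpr, the GC offset with 0 surrogate variables, the replicate block and without both steep libraries, and 2 with a total count of at least 50 or no filter; 1 library left out gave 0 to 2. In hippocampus DESeq2 gave 2 DEGs with surrogate variables and 1 without, against 0. The causes were not tested.

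With the replicate block the DEG was Utp14b (1 call), with 592 genes higher and 460 lower. The labels do not say whether equal numbers share anything between the groups. Deviations of the same-numbered TG libraries correlated at -0.0967, 0.07, 0.265 and 0.324, and 2 of 4 numbers correlated best with their own. So few pairs cannot decide the question.

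Direction turned for 5730419F03Rik (4.86 with DESeq2 and surrogate variables, 1.16 with the replicate block, 4.1 in TG alone, -21.85 to 8.42 with 1 library left out, the latter without TG HFD replicate 3, 6.51 without both steep libraries) and Gm29611 (0.28 with the block). With DESeq2 without surrogate variables, edgeR with 0 and the GC offset with 0, in that order, it turned for Acly (0.0526, 0.052, 0.0449), Fasn (0.15, 0.15, 0.11), Srebf2 (0.0705, 0.0701, 0.0347; 0.014 with the block), Rpl17 (-0.0663, -0.0664, -0.0573) and BC035947 (0.0734, 0.0733, 0.0724). BC035947 also turned with 1 and 2 surrogate variables (0.0657, 0.0567), the block (0.1), TG alone (0.0859) and without both steep libraries (0.0221), and ranged from -0.15 to 0.0229 with 1 library left out (positive without TG SD replicate 6 and TG HFD replicates 3 and 4). Farsb turned without TG HFD replicate 3 or 7 (-0.00621 to 0.0383).

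The median standard error over all tested genes was 0.0698 on the log2 scale, and 6 libraries a group limit the precision of every value.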
